A study of Mus musculus with 12 samples.

Results

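Abca1, Abcg5, Abcg8 and Mylip are 4 target genes of the liver X receptors (LXR) that act in sterol efflux or in sterol uptake, and their levels in mouse ileum are described here. All probe sets annotated to exactly 1 of these symbols were taken, which gave 6 of the 22626 probe sets tested and 4 of the 12393 genes measured. Abca1 had 3 probe sets and each other gene had 1. The genes were chosen by their shared regulator and with group differences of these data in view. Among these was the lower Mylip level of POR-null mice on quercetin against control diet. That comparison and the genotype difference built on it are therefore given as a description. Tests of the other group comparisons are not independent of the choice either.

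LXR alpha and LXR beta (genes Nr1h3 and Nr1h2) are nuclear receptors that bind oxysterols, the oxidised forms of cholesterol, and that act as partners of the retinoid X receptors (such as Rxra) when cell sterol rises. In the intestine, ABCG5 and ABCG8 form a single transporter at the brush border that returns plant sterols and cholesterol to the lumen, and ABCA1 at the basolateral side loads cholesterol onto apolipoprotein A-I. MYLIP, also called IDOL, is a ubiquitin ligase that lowers the uptake of lipoprotein cholesterol, so that LXR lowers uptake while it raises efflux.

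The study asked how ileal gene expression responds to dietary quercetin, a plant flavonol, with and without cytochrome P450 reductase (POR), which passes electrons to microsomal P450 enzymes. RNA came from epithelium scraped from the last of 3 equal lengths of the small intestine of male C57BL/6 mice aged 6 to 8 weeks. All mice ate a soya-free powdered RM3 diet for 14 days, and from day 15 they had that diet with or without quercetin for 24 h before tissue was taken. The 4 groups were POR-null mice on quercetin, POR-null mice on control diet, wild-type mice on quercetin and wild-type mice on control diet, with 3 arrays each. The RNA on an array was a pool of 3 mice. The quercetin dose was 6.2 g per kg of diet, or 7 mg per mouse. Where in the body the reductase is missing is not given in the labels. Por itself is not analysed here, so the genotypes were taken as labelled. Tests over pools measure the spread between pools, not between single mice.

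All values are log2 expression levels on Affymetrix 430A arrays as the authors deposited them, so a difference of 1 is a doubling, and levels were not compared between probe sets. Array medians lay between 5.91 and 5.96. The enterocyte genes Vil1 (12.11 to 12.32) and Fabp2 (13.16 to 13.62) were high on all 12 arrays, and so was the ileal bile acid binding protein Fabp6. Wild-type control replicate 2 stood apart: it lay at -25.6 on the first principal component, which held 19.7% of the variance, while the other 11 arrays lay between -10.8 and 10.6. Its mean score of 10 proximal small intestine genes was 0.55, against -0.25 to 0.20 in the other arrays, and its enterocyte score was 0.44, against -0.28 to 0.16. Wild-type quercetin replicate 2 had a score of 1.00 over 5 colon genes, above all other arrays. POR-null control replicate 1 had the highest score over 19 smooth muscle and stroma genes, 0.76, against -0.42 and 0.37 in the other arrays of its group and -0.52 to 0.45 in the other 3 groups. In such bulk samples fewer cells of a type and less RNA per cell cannot be told apart.

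Abcg5 and Abcg8 lie head to head on chromosome 17. In GRCm38.p6, the assembly of the RefSeq promoter table, Abcg5 starts at 84683011 on the minus strand and Abcg8 at 84683121 on the plus strand, with 109 bases between the starts. A further Abcg8 start is annotated at 84676302. The stretch between the facing starts, chr17:84683012-84683120 on the plus strand, is shown because the transcripts of both genes begin at its ends. Capitals mark its 2 GATA boxes, the letters AGATAA, which read TTATCT on this strand.
Abcg5-Abcg8: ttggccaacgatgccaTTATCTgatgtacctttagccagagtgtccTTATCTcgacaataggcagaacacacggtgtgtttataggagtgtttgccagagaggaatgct
GATA factors are known regulators of small-intestinal enterocytes. Windows of 250 bases before to 50 after each start were searched on both strands for AGATAA, which 11.2% of 32851 mouse windows hold. The overlapping Abcg5 and Abcg8 windows held the same 3 copies, 2 of them in the stretch above, and the Abca1 and Mylip windows held 0.

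LXR with its RXR partner binds a direct repeat spaced by 4 bases (DR4), searched on both strands as AGGTCA, any 4 letters and AGGTCA again. The closest match among the 4 genes lay 67 bases before the Abca1 start, at chr4:53159947-53159962, and is printed from the plus strand with the repeated half-sites in capitals.
Abca1 DR4-like: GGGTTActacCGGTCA
It departs from the motif at 3 of the 12 fixed letters, and 21.9% of all windows hold a match as good. The best matches in the Abcg5 and Abcg8 windows departed at 4 letters, as in 76.9% of windows or better, and that in the Mylip window (chromosome 13, start 45389742, plus strand) at 5, which 99.8% reach. These matches are letters only, and the windows do not cover distant enhancers or introns.

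Abcg5 encodes one of the 2 subunits of the brush-border sterol exporter. Its log2 levels were 10.34, 10.14 and 10.19 in POR-null mice on quercetin, 10.28, 10.51 and 10.68 in POR-null mice on control diet, 10.64, 10.57 and 10.47 in wild-type mice on quercetin, and 10.75, 10.13 and 10.05 in wild-type mice on control diet. The group means in that order were 10.22 ± 0.10, 10.49 ± 0.20, 10.56 ± 0.09 and 10.31 ± 0.38 (SD, n = 3). POR-null mice on quercetin lay below wild-type mice on quercetin without overlap, whereas every other pair of groups overlapped. Wild-type control replicate 1 was the highest of all arrays, while the other two of its group were the lowest.

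Abcg8 encodes the partner subunit, without which ABCG5 does not reach the cell surface. Its levels were 8.04, 7.98 and 8.07 in POR-null mice on quercetin, 8.04, 8.24 and 8.50 in POR-null mice on control diet, 8.29, 8.25 and 8.17 in wild-type mice on quercetin, and 8.27, 7.83 and 7.84 in wild-type mice on control diet. The means in that order were 8.03 ± 0.05, 8.26 ± 0.23, 8.24 ± 0.06 and 7.98 ± 0.25 (SD, n = 3). The pattern over arrays followed that of Abcg5: replicate 1 was again the high array of the wild-type control group and the low array of the POR-null control group.

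Abca1 encodes the exporter that starts HDL particles at the basolateral membrane. Its brightest probe set, 1421840_at, read 5.77, 5.66 and 5.54 in POR-null mice on quercetin, 5.46, 7.04 and 6.81 in POR-null mice on control diet, 6.79, 6.58 and 6.93 in wild-type mice on quercetin, and 6.37, 5.61 and 6.13 in wild-type mice on control diet. The means in that order were 5.66 ± 0.12, 6.44 ± 0.85, 6.77 ± 0.18 and 6.04 ± 0.39 (SD, n = 3). Its range over arrays, 1.58, was wider than that of 99.3% of all probe sets. In the POR-null control group 1 array was as low as the POR-null quercetin arrays and 2 were as high as the wild-type quercetin arrays.

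The other Abca1 probe sets varied less. Probe set 1421839_at lay between 5.67 and 6.13 over all 12 arrays, a range of 0.46, wider than that of 68.3% of all probe sets. Probe set 1450392_at lay between 3.80 and 4.06, a range of 0.26, wider than that of 12.8%. The deviations of 1421840_at from its group means correlated at r = 0.51 with those of 1421839_at and at r = 0.78 with those of 1450392_at, over 12 arrays (exact permutation test within groups, two-sided, unadjusted p = 0.0185 and p = 0.0833). The Abca1 results below rest on 1421840_at, the probe set with the highest mean, and the size of its changes was not seen by the other two.

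Mylip, the ubiquitin ligase gene, read 7.12, 7.19 and 7.31 in POR-null mice on quercetin, 7.56, 7.67 and 7.58 in POR-null mice on control diet, 7.57, 7.75 and 7.64 in wild-type mice on quercetin, and 7.46, 7.55 and 7.41 in wild-type mice on control diet. The means in that order were 7.21 ± 0.10, 7.60 ± 0.06, 7.65 ± 0.09 and 7.47 ± 0.07 (SD, n = 3). The POR-null quercetin arrays were the lowest of all 12 and overlapped no other group. Its SD was at most 0.10 in every group, and wild-type mice on quercetin lay above those on control diet without overlap.

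**Figure D1:**
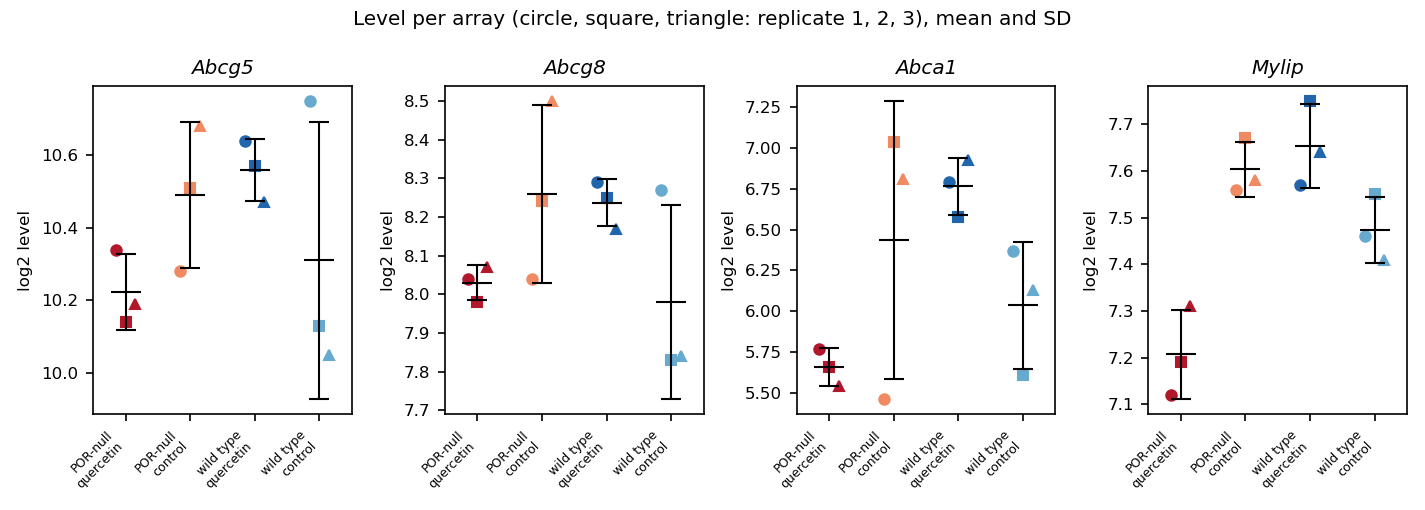
Log2 level of Abcg5, Abcg8, Abca1 (probe set 1421840_at) and Mylip on each of the 12 arrays, by genotype and diet; symbols give the replicate, bars the mean and SD of 3 arrays, and each panel has its own axis. POR-null quercetin arrays lie below all wild-type quercetin arrays in each panel, and the control groups of Abcg5, Abcg8 and Abca1 are spread widely.

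In order of their group means, Abcg5, Abca1 and Mylip ran from POR-null quercetin at the bottom, through wild-type control and POR-null control, to wild-type quercetin at the top. Abcg8 differed only in that wild-type control (7.98) stood below POR-null quercetin (8.03) and wild-type quercetin (8.24) below POR-null control (8.26), each by less than the SD of a control group. The neighbours POR-null control and wild-type quercetin overlapped for all 4 genes.

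On the quercetin diet, all 4 genes were lower in POR-null mice than in wild-type mice with no overlap between the arrays, where 5% of all probe sets were lower without overlap. This comparison shares the POR-null quercetin arrays with the one in which Mylip was known to be low. Abca1 differed by -1.11 ± 0.31 (log2, SE), a fold of 0.463, with a 95% interval of -1.77 to -0.45 (limma, adjusted p = 0.466 over all probe sets). Mylip differed by -0.45 ± 0.08, a fold of 0.734 (adjusted p = 0.141). Abcg5 differed by -0.34 ± 0.15 (adjusted p = 0.706) and Abcg8 by -0.21 ± 0.12 (adjusted p = 0.761). None of the 4 passed limma's test at an adjusted p of 0.05, nor did any of the 22626 probe sets (0%). At an unadjusted p under 0.05 there were 3 of 4, against 7.01% of all probe sets. The other Abca1 probe sets differed by -0.10 and -0.09. The test fitted to these 6 arrays alone called Abca1 by 1421840_at (limma, adjusted p = 0.0152), together with 1 other probe set. That fit leaves out the control groups, where the SD of this probe set was largest (0.85 in POR-null and 0.39 in wild type). As the genes were chosen with group differences in view, this call is a description.

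In wild-type mice all 4 genes had higher means on quercetin than on control diet. Abca1 differed by 0.73 ± 0.31 (limma, adjusted p = 0.410) and Mylip by 0.18 ± 0.08 (adjusted p = 0.410), and these 2 genes did not overlap between diets, where 5.33% of probe sets were higher without overlap. Abcg5 differed by 0.25 ± 0.15 (adjusted p = 0.578) and Abcg8 by 0.26 ± 0.12 (adjusted p = 0.476), each with control replicate 1 among the quercetin arrays or above them. Without that array the differences were 0.47 for Abcg5 and 0.40 for Abcg8, and for Abcg5 they were 0.16 without control replicate 2 and 0.12 without control replicate 3. Adjusted over all probe sets, 0 of the 4 genes passed, against 0.00442% of all probe sets. At an unadjusted p under 0.05 there were 2 of 4, against 10.9%. The 2 other Abca1 probe sets differed by -0.09 and 0.04.

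In POR-null mice all 4 genes had lower means on quercetin than on control diet. Mylip was -0.40 ± 0.08 apart (log2, SE), without overlap, where 5.11% of probe sets were lower without overlap. This value was known beforehand. Abca1 was -0.78 ± 0.31 apart, Abcg5 -0.27 ± 0.15 and Abcg8 -0.23 ± 0.12, all with overlap. For these 3 genes POR-null control replicate 1 was the overlapping array. Leaving out each array in turn, the difference lay between -1.27 (without that array) and -0.48 (without POR-null control replicate 2) for Abca1. It lay between -0.37 (without POR-null control replicate 1) and -0.17 (without POR-null control replicate 3) for Abcg5, and between -0.34 and -0.11 without the same arrays for Abcg8. The other Abca1 probe sets gave -0.14 and -0.08.

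On the control diet all 4 genes had higher means in POR-null mice than in wild-type mice. The differences were 0.40 ± 0.31 for Abca1, 0.18 ± 0.15 for Abcg5, 0.28 ± 0.12 for Abcg8 and 0.13 ± 0.08 for Mylip (limma, adjusted p from 0.476 to 0.706). Only Mylip did not overlap, where 5.15% of probe sets were higher without overlap. Adjusted over all probe sets, 0 of 4 genes passed (0% of all probe sets), and 1 of 4, Abcg8, had an unadjusted p under 0.05 against 10.1% of probe sets. The other Abca1 probe sets gave -0.05 and 0.04. Leaving out each array in turn, the difference lay between 0.10 (without POR-null control replicate 2) and 0.89 (without POR-null control replicate 1) for Abca1, being 0.19 without wild-type control replicate 2 and 0.21 without POR-null control replicate 3. It lay between 0.05 (without wild-type control replicate 3) and 0.40 (without wild-type control replicate 1) for Abcg5, being 0.090 without wild-type control replicate 2, 0.085 without the third POR-null control array and 0.285 without the first. For Abcg8 it lay between 0.16 (without POR-null control replicate 3) and 0.425 (without wild-type control replicate 1).

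By the brightest probe set of each gene, the effect of quercetin thus had a negative sign in POR-null mice and a positive sign in wild-type mice. Abca1 probe set 1421839_at had a negative sign in both (-0.14 and -0.09). The effect in POR-null minus that in wild type was -1.51 ± 0.43 for Abca1, -0.52 ± 0.22 for Abcg5, -0.49 ± 0.17 for Abcg8 and -0.58 ± 0.11 for Mylip (log2, SE). Every quercetin array lay beyond the mean of its own control group, below it in POR-null and above it in wild type, for all 4 genes; 3.68% of all probe sets did so in these directions and 7.55% in the reverse directions. Averaged over genotypes, the quercetin effect lay between -0.11 and 0.01 for the 4 genes, and 0 of 4 passed limma's test (0% of probe sets; 0 of 4 at an unadjusted p under 0.05, against 7.44%). Averaged over diets, the genotype effect lay between -0.36 and 0.04, and 0 of 4 passed (0% of probe sets; 1 of 4 at an unadjusted p under 0.05, against 7.12%). The comparisons above share arrays in pairs, so their signs are not independent of each other.

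**Figure D2:**
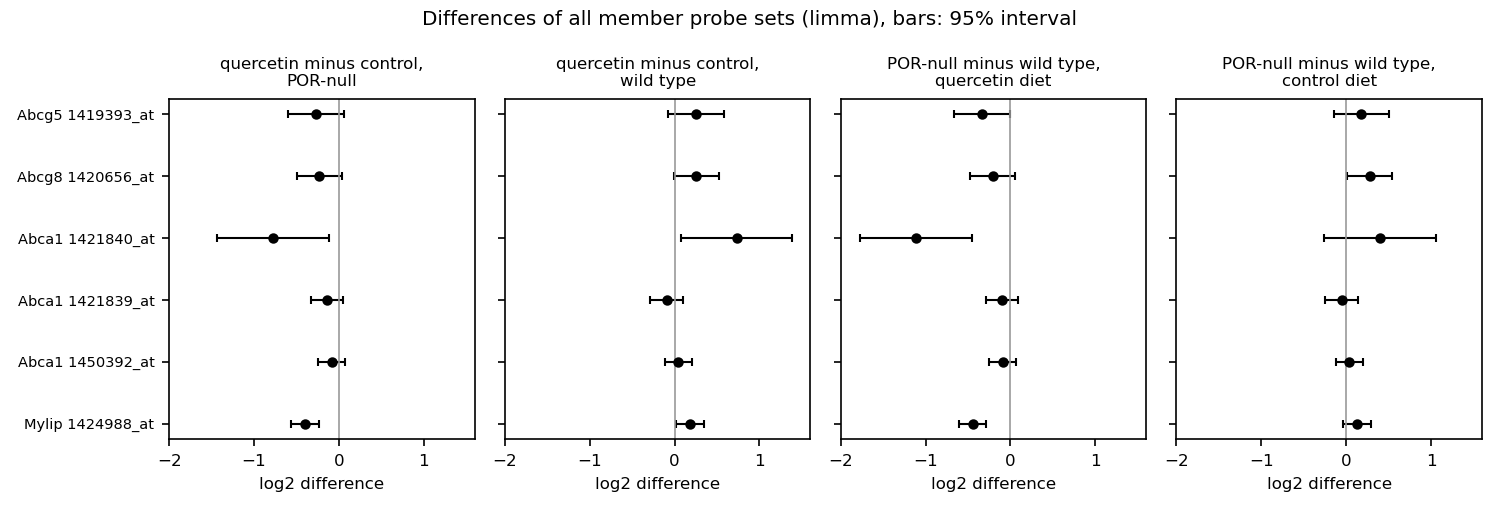
Log2 difference of each of the 6 probe sets of the 4 genes in the 4 comparisons between groups, from limma on 12 arrays; points are estimates and bars 95% intervals. Differences are negative for the quercetin effect in POR-null and for POR-null against wild type on quercetin, positive in the other 2 panels for the brightest probe set of each gene, and close to 0 for the 2 dimmer Abca1 probe sets.

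Whether the genes moved together was asked of the deviations of each array from its group mean, which the choice of genes had not used. Abcg5 and Abcg8 did so: their deviations correlated at r = 0.94 over 12 arrays (exact permutation test within groups, two-sided, p = 0.00617, adjusted p = 0.0370 over 6 pairs), with Spearman's rho = 0.90 (exact p = 0.00772, adjusted p = 0.0463). In 10 of 12 arrays both lay on the same side of their group means. Without the 2 arrays farthest from the mean in Abcg5, wild-type control replicates 1 and 3, r was 0.92. The deviations were not recomputed for this, so the 2 arrays still entered the mean of their group. By label, r was 0.70 over the 6 quercetin arrays, where deviations were small, and 0.96 over the 6 control arrays. The difference between the Abcg5 and Abcg8 log2 values had an SD of 0.0967 over the 12 arrays, against SDs of 0.239 for Abcg5 and 0.197 for Abcg8. Leaving out 1 array kept r between 0.89 and 0.96, while the adjusted p of the exact test lay between 0.0278 and 0.264. It stayed under 0.05 in 2 of 12 cases. The lowest r and the highest adjusted p came without wild-type control replicate 1, whose deviations were 0.44 for Abcg5 and 0.29 for Abcg8. Each of these tests also had fewer arrangements to permute.

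Abca1 was not shown to follow the pair. Within groups its r was 0.56 with Abcg5 (rho = 0.59, exact permutation adjusted p = 0.418) and 0.63 with Abcg8 (rho = 0.48, adjusted p = 0.418). In the control arrays these were 0.60 and 0.69, where POR-null control replicate 1 was low in all 3 genes, with deviations of -0.98 for Abca1, -0.21 for Abcg5 and -0.22 for Abcg8. This is also the array with the highest smooth muscle and stroma score (0.76), whose part was not tested. In the quercetin arrays they were 0.04 and -0.49. By the other Abca1 probe sets, an alternative chosen after the data were seen, r with Abcg5 and Abcg8 was 0.55 and 0.43 for 1421839_at and 0.09 and 0.17 for 1450392_at.

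Mylip was not shown to track the transporters within groups. Its r was -0.04 with Abca1 (exact permutation adjusted p = 0.961), -0.10 with Abcg5 (adjusted p = 0.961) and -0.02 with Abcg8 (adjusted p = 0.961), and Spearman's rho was -0.18, -0.08 and 0.06. Mylip and Abca1 deviated the same way in 2 of 12 arrays. Without the 2 arrays farthest in Abca1, POR-null control replicates 1 and 2, their r was -0.62. The same step by Abcg5 or Abcg8 gave -0.28 and 0.15. Over the 6 quercetin arrays r of Mylip was -0.79 with Abca1, -0.47 with Abcg5 and 0.09 with Abcg8. Over the 6 control arrays it was 0.18, 0.04 and -0.06. Over all 12 arrays with group means kept in, r was 0.64, 0.49 and 0.45 for the same pairs, 0.92 for Abcg5 with Abcg8, 0.74 for Abca1 with Abcg5 and 0.72 for Abca1 with Abcg8. These pooled values include the group differences that led to the choice of the genes and are a description. Without wild-type control replicate 2 they were 0.72, 0.57, 0.57, 0.91, 0.70 and 0.68.

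**Figure D3:**
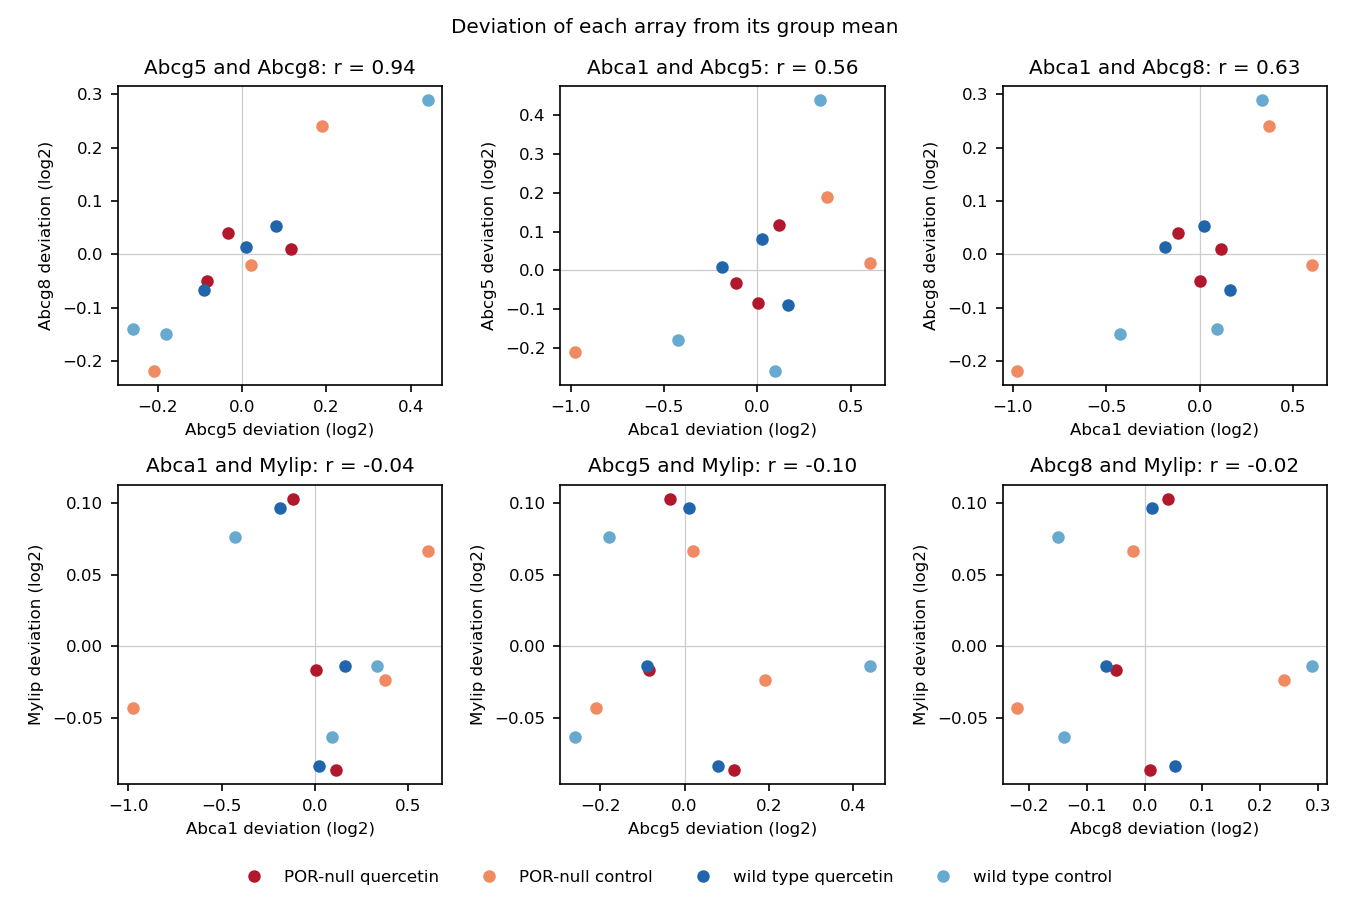
Deviation of each array from its group mean (log2) for the 6 pairs of the 4 genes, 12 arrays, coloured by group, with Pearson's r above each panel. Abcg5 and Abcg8 lie along a line (r = 0.94), and Abca1 is spread around both (0.56 and 0.63). Over the 12 arrays together Mylip shows no line with any of the others (-0.04 to -0.02, and -0.10 with Abcg5).

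The likeness of other genes was ranked by Pearson's r over the 12 arrays, among 7309 genes with a mean level above the median, which all share the same arrays and groups. Abcg5 and Abcg8 ranked first for each other (0.92). With group means removed, Abcg5 ranked 1 for Abcg8, and Abcg8 ranked 3 for Abcg5 (0.94, against 0.95 for Ubap2l). For both, Ubap2l (0.89 and 0.86) and the G protein subunit gene Gna11 (0.86 and 0.83) were among the 5 closest, with Fbxo25 (0.86) and Pura (0.85) for Abcg5 and Thap11 (0.92) and the purinergic receptor gene P2ry1 (0.89) for Abcg8. For Abca1 the closest were the galactosyltransferase gene B4galt4 (0.92), Smarcad1 (0.91), the epithelial hedgehog ligand Ihh (0.86), the basolateral bile acid transporter subunit Slc51a (0.84) and Sgpp1 (0.84). Abcg5 ranked 33, Abcg8 44 and Mylip 121 for Abca1.

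Mylip's closest genes were Birc2 (0.90), Zfp36l1 (0.89), Ttc33 (0.87), the B cell receptor chain Cd79a (0.85) and Tmx1 (0.85), while Abca1 ranked 158, Abcg5 598 and Abcg8 781. With group means removed, Cd79a correlated with Mylip at 0.06. Cd79a read 6.82, 6.66 and 7.09 in POR-null mice on quercetin, 7.50, 7.53 and 7.52 in POR-null mice on control diet, 7.66, 7.54 and 7.66 in wild-type mice on quercetin, and 7.01, 7.27 and 7.54 in wild-type mice on control diet. Its POR-null quercetin arrays were thus low as those of Mylip were, though 1 of them lay above the lowest wild-type control array.

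Markers of other cells moved with the groups. Of 11 measured B and plasma cell genes, 9 were lower in POR-null than in wild-type mice on quercetin, with a median difference of -0.23 against 0.013 over all probe sets, and 5 did not overlap, where 5% of all probe sets were lower without overlap. Their summed log2 level was 79.39 to 82.00 in POR-null mice on quercetin, 79.69 to 83.47 in POR-null mice on control diet, 82.87 to 85.01 in wild-type mice on quercetin and 78.44 to 82.88 in wild-type mice on control diet. The score of 13 enterocyte genes was -0.03 to 0.12, -0.20 to -0.03, -0.28 to 0.16 and -0.09 to 0.44 in the same order, and that of 8 ileal segment genes -0.21 to -0.06, -0.13 to 0.16, -0.02 to 0.30 and -0.23 to 0.00. Among the 19 muscle and stroma markers, POR-null mice had the higher mean for 18 on quercetin (median difference 0.22) and for 18 on control diet (median 0.36), with 0 of them free of overlap on either diet. Their score was 0.07 to 0.45 in POR-null quercetin, -0.42 to 0.76 in POR-null control, -0.51 to 0.26 in wild-type quercetin and -0.52 to -0.14 in wild-type control arrays. Of 9 mast cell genes, 9 were higher on quercetin in POR-null (median 0.19), and 9 were lower in POR-null than in wild-type mice on control diet (median -0.20), 5 of these without overlap against 8.71% of all probe sets. The lowest value deposited for any probe set was 2.66, so no marker was listed at 0. Their part in the differences of the 4 genes was not tested.

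Among the ileal segment genes Fgf15, the hormone that ileal enterocytes release when bile acids activate FXR, was singled out after its values were seen, and it correlated with Abca1 at r = 0.76 over the 12 arrays and at 0.55 with group means removed. It read 5.56, 5.36 and 5.70 in POR-null mice on quercetin, 5.31, 7.20 and 6.85 in POR-null mice on control diet, 7.01, 8.88 and 7.77 in wild-type mice on quercetin, and 6.64, 6.63 and 6.63 in wild-type mice on control diet. POR-null control replicate 1 was low for both genes, and its 2 companions were high for both.

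The wider LXR pathway was centred near 0. The efflux and uptake genes were chosen with group differences of these data in view. Their contrast with the list below is partly set by that choice. It therefore does not show that they respond apart from other LXR targets. Of 19 measured other LXR targets, 9 were higher and 10 lower in POR-null than in wild-type mice on quercetin (median -0.04), 10 were higher and 9 lower on quercetin in wild type (median 0.01), 10 were higher and 9 lower on quercetin in POR-null (median 0.01), and 11 were higher and 8 lower in POR-null than in wild-type mice on control diet (median 0.02). None passed limma's adjusted test in these comparisons. The medians of all probe sets were 0.013, -0.023, 0.013 and -0.017 in the same order.

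Apoe, an apolipoprotein that carries cholesterol from macrophages and other cells, was the 1 gene of these 19 that was lower without overlap in POR-null than in wild-type mice on quercetin, which is close to the 5% of all probe sets. Another 2 of the 19, Abcd2 (0.09) and Vldlr (0.13), were higher without overlap, where 7.28% of probe sets were. Both were dim, with group means under the lower quartile of all mean levels (4.74). Apoe read 6.47, 6.14 and 6.76 in POR-null mice on quercetin, 6.69, 6.27 and 6.71 in POR-null mice on control diet, 6.79, 6.84 and 7.18 in wild-type mice on quercetin, and 6.04, 6.10 and 6.38 in wild-type mice on control diet. It differed by -0.48 ± 0.16 between POR-null and wild-type mice on quercetin (limma, adjusted p = 0.583) and by 0.76 ± 0.16 between diets in wild type (adjusted p = 0.229). The 13 measured macrophage and dendritic cell genes scored 0.02 to 0.11 in POR-null quercetin, -0.10 to 0.04 in POR-null control, -0.08 to 0.09 in wild-type quercetin and -0.10 to -0.02 in wild-type control arrays, and their part in Apoe was not tested.

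Srebf1, the LXR target that drives lipogenesis, read 7.97, 8.01 and 8.00 in POR-null mice on quercetin, against 8.21, 8.07 and 8.28 in POR-null mice on control diet, which did not overlap (-0.19 ± 0.08). It was the 1 gene of the 19 that was lower without overlap in this comparison, which is close to the 5.11% of all probe sets. Another 4 were higher without overlap, where 7.45% of probe sets were: Apoc1 (0.23), Fasn (0.25), Lrp8 (0.11) and Vldlr (0.21). In wild type Srebf1 read 8.10, 7.92 and 8.17 on quercetin, against 8.06, 8.01 and 8.08 on control diet, which overlapped (0.01 ± 0.08). Abcg1, a cholesterol exporter of the same ABCG family, overlapped between all groups: 5.81 to 5.96 in POR-null quercetin, 5.74 to 6.00 in POR-null control, 5.89 to 6.09 in wild-type quercetin and 5.70 to 6.21 in wild-type control arrays.

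Nr1h3, LXR alpha, lay between 6.91 and 7.27 on all 12 arrays. It differed by 0.14 ± 0.08 between POR-null and wild-type mice on quercetin, with overlap (limma, adjusted p = 0.754), and by 0.16 ± 0.08 on control diet, without overlap (adjusted p = 0.526). On control diet 3 of the 6 measured receptor and cofactor genes were higher without overlap, where 5.15% of probe sets were: Nr1h3, Rxra (0.21) and the coactivator Ncoa1 (0.25). The corepressor Nrip1 was lower without overlap there (-0.23), and also on quercetin in wild type (-0.31 ± 0.08, adjusted p = 0.269), where 8.08% of probe sets were lower without overlap. Rxra, the obligate partner, read 8.34, 8.32 and 8.32 in POR-null mice on quercetin, against 8.58, 8.56 and 8.53 in POR-null mice on control diet, without overlap (-0.23 ± 0.10). Ncoa1 was also lower without overlap there, at 7.26, 7.26 and 7.22 against 7.51, 7.43 and 7.39. These were 2 of the 6 genes, where 5.11% of probe sets were lower without overlap. In wild type Rxra overlapped between diets (0.07 ± 0.10). Of the 6 genes, 1 was higher and 5 were lower on quercetin in POR-null, with a median of -0.06. Of 8 enzymes that form or clear oxysterols, 7 were higher and 1 was lower in POR-null than in wild-type mice on quercetin, with a median of 0.10 and 0 past the adjusted test. Of all 22626 probe sets, 12416 were higher there. On control diet 3 enzymes were higher and 5 lower in POR-null. On quercetin against control diet 6 were higher and 2 lower in POR-null, and 4 and 4 in wild type. Ch25h, Cyp7b1, Cyp39a1 and Cyp11a1 were dim, with group means under the lower quartile of all mean levels (4.74).

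The genes that SREBP2 switches on when sterol is low had medians on the opposite side in 3 of the 4 comparisons. Of 19 measured SREBP2 targets, 17 were higher in POR-null than in wild-type mice on quercetin, with a median of 0.33, and 11 did not overlap, where 7.28% of probe sets were higher without overlap. Fdft1, squalene synthase, differed by 0.56 ± 0.09 (limma, adjusted p = 0.141) and 0 of 19 passed. This shift was known when the list was written. On quercetin against control diet, 17 of 19 were higher in POR-null (median 0.13) and 13 of 19 were lower in wild type (median -0.11), so that the median had the opposite sign to that of the 4 efflux and uptake genes in each of these 3 comparisons. Between diets few were free of overlap: 1 was higher and 1 lower in POR-null (7.45% and 5.11% of probe sets), and 1 was lower in wild type (8.08%). Of all 22626 probe sets, 12324 were higher on quercetin in POR-null and 12902 were lower in wild type. On the control diet the median, POR-null against wild type, was 0.03, of the same sign as that of the 4 genes (0.23). Of 14 genes of cholesterol entry and esterification, 12 were lower on quercetin in wild type (median -0.08), among them the endosomal cholesterol exporter Npc1 (-0.42 ± 0.13, adjusted p = 0.296), and medians in the other 3 comparisons ran from -0.13 to 0.02. Npc1l1, Soat2 and Nr1h2 are not analysed here.

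**Figure D4:**
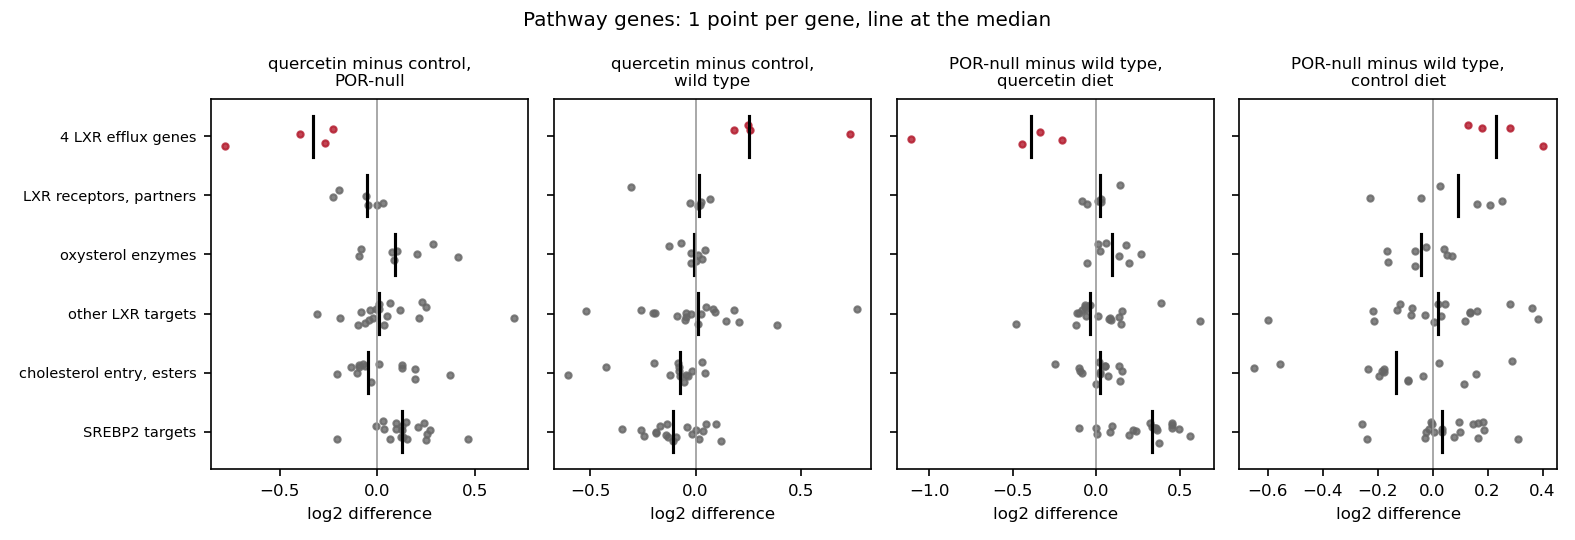
Log2 difference of each measured gene in the 4 comparisons between groups, with 1 point per gene, for the 4 LXR target genes (red) and 5 lists of related genes (grey); the black line is the median of each list, and panels have their own axes. The 4 genes lie below 0 for the quercetin effect in POR-null and for POR-null against wild type on quercetin, where SREBP2 targets lie mostly above 0 (medians 0.13 and 0.33), and other LXR targets are centred near 0.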

How the data were processed

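The authors deposited log2 expression levels, 1 per probe set and array, and these were used as deposited. MAS5 and RMA appear in the submitters' processing notes, which do not say which of them made the values. The files held 22690 probe sets, and 64 of them, array controls, were not used. Symbols came from the platform annotation (1 symbol for 20380 probe sets, several for 691, none for 1555), and 20351 were matched by gene ID to GRCm38.p6 names. A gene is represented by its probe set with the highest mean.

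Group means were estimated in limma 3.58.1 (R 4.3.3) from all 12 arrays together (lmFit, eBayes, 8 residual and 5.59 prior degrees of freedom), with Benjamini-Hochberg adjustment over 22626 probe sets and a threshold of 0.05. Deviations from group means were correlated, and the exact test permuted 1 gene within groups (1296 arrangements). Figures were drawn with matplotlib in Python. Both tests were checked on simulated data. The genes, lists and tests were chosen with earlier results of these data known. Up to 4 genes per pathway list with the smallest unadjusted p were eligible for naming, besides genes of defined role. Abcg1 and Srebf1 were named whatever their values, and Fgf15 was added later. Outside this rule, Abcd2, Fasn and Lrp8 were named because their arrays did not overlap in a comparison. Ch25h, Cyp7b1 and Cyp39a1 were named only for their low levels. A list's score is the mean of its genes, each centred over the arrays. No probe set with several symbols included a member.

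Replicate numbers are shared by the groups, but same-numbered arrays did not deviate together (median r 0.016 over 18 pairs, 3 of them over 0.1), so the numbers were not taken as pairs. No 2 arrays of a group held the same values. The number of arrays limits the precision. Alternatives were quantile normalization, median centring, filters on dim probe sets, other eBayes settings, array weights, a replicate block, fits to the compared groups alone, a gene's mean over its probe sets, and leaving out each array.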

Additional observations from a re-analysis of the deposited data

Results flagged for a closer look

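By the brightest probe set of each gene, the quercetin effect ran in opposite directions in the genotypes for all 4 genes. Every quercetin array lay below the control mean in POR-null mice and above it in wild-type mice. The effect in POR-null minus that in wild type was -1.51 for Abca1, -0.52 for Abcg5, -0.49 for Abcg8 and -0.58 for Mylip (log2). Of all probe sets, 3.68% met the same condition in these directions and 7.55% in the reverse directions. No p-value is given for these differences, because the genes were chosen with part of that contrast known, and they are a description. For Abca1 the other probe sets gave -0.05 and -0.13. Of these, 1421839_at did not run in opposite directions: it differed by -0.14 in POR-null and by -0.09 in wild type. Probe set 1450392_at differed by -0.08 and 0.04.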

How the results depend on the processing

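Over 416 alternative values of the 20 differences between groups and of the genotype difference in the quercetin effect, 0 reversed. Many of these could not reverse: filters, other eBayes settings, the replicate block and fits to the compared groups alone leave a difference between group means unchanged. So does leaving out an array of a group not compared. Another Abca1 probe set by itself was not a setting. Probe set 1421839_at gave -0.09 for quercetin in wild type and -0.05 for POR-null on control diet, against 0.73 and 0.40 for 1421840_at. The counts of called genes changed in 2 cases. Fitted to only the arrays compared, 1 gene (Abca1) passed for POR-null against wild type on quercetin, without the control groups in which it varied most. Leaving out 1 array, the count for the difference in quercetin effects lay between 0 and 1 (1, Abca1, without POR-null control replicate 1). The genes were chosen with group differences in view, and the second contrast was used in that choice, so both counts are a description. With the mean of its probe sets Abca1 differed by -0.43 in place of -1.11 for POR-null against wild type on quercetin, and by -0.56 in place of -1.51 for the difference in quercetin effects. Leaving out 1 array, r within groups lay between 0.89 and 0.96 for Abcg5 and Abcg8, 0.48 and 0.70 for Abca1 and Abcg5, 0.38 and 0.79 for Abca1 and Abcg8, -0.54 and 0.14 for Abca1 and Mylip, -0.32 and 0.0547 for Abcg5 and Mylip, and -0.18 and 0.16 for Abcg8 and Mylip. Signs near 0 turned for Mylip: median centring gave 0.0393 with Abca1 and 0.0496 with Abcg8, Spearman's rho 0.0560 with Abcg8, and r without removing group means 0.64, 0.49 and 0.45 with Abca1, Abcg5 and Abcg8. Without removing group means r was 0.74 for Abca1 and Abcg5 and 0.72 for Abca1 and Abcg8, values that include the differences between groups and pass the threshold. With the replicate block, r was 0.98 for Abcg5 and Abcg8, 0.74 for Abca1 and Abcg5, 0.25 for Abcg5 and Mylip and 0.22 for Abcg8 and Mylip, and the block changed no call. Leaving out 1 array turned the sign of some averaged effects: quercetin averaged over genotypes lay between -0.27 and 0.13 for Abca1, -0.0733 and 0.10 for Abcg5 and -0.0417 and 0.0858 for Abcg8, and POR-null averaged over diets lay between -0.14 and 0.0317 for Abcg5 and -0.0233 and 0.11 for Abcg8. The averaged quercetin effect on Mylip and the averaged POR-null effects on Abca1 and Mylip kept their sign. The cause was not tested.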
